A study of Homo sapiens with 6 samples.

Results

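The Wnt ligands, their receptors and their antagonists were examined in MDA-MB-231 cells with and without knockdown of PELP1, a coregulator of nuclear receptors and other transcription factors. The genes were picked by a rule on their symbols. They are the WNT ligands, the Frizzled (FZD) receptors, the co-receptors LRP5, LRP6, ROR1, ROR2 and RYK, the R-spondins, LGR4 to LGR6, RNF43 and ZNRF3, the antagonists of the DKK and SFRP families with WIF1, SOST and SOSTDC1, both Kremen receptors, and the intracellular inhibitors AXIN1, AXIN2, NKD1 and NKD2. The count tables listed 60 such genes among 23228. Of these 60, 29 (48.3%) had enough counts to be tested, against 12796 (55.1%) of all genes.

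MDA-MB-231 is a human triple negative breast cancer (TNBC) cell line of mesenchymal type. The control cells (3 samples) carried a non-targeted shRNA and the PELP1-KD cells (3 samples) a PELP1 shRNA, both delivered by lentivirus and held by puromycin selection, and both were grown in RPMI medium with fetal bovine serum. The PELP1-KD cells carried 1 shRNA sequence, so an effect of that sequence on other transcripts cannot be told apart from an effect of lower PELP1. The labels do not say that the samples of a group came from separate transductions or cultures, so each p-value measures only the spread between these samples, which may be technical. RNA-seq counted between 17304864 and 23132102 reads on genes in each sample. Levels are given below as CPM, the count of a gene scaled to the library size after TMM adjustment, and a fall in CPM in such bulk RNA can come from fewer cells that express a gene or from less RNA per cell, which cannot be told apart. A gene is described as risen or fallen where edgeR's quasi-likelihood test gave an adjusted p-value below 0.05 after Benjamini-Hochberg adjustment over all 12796 tested genes.

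Wnt proteins are secreted glycoproteins that carry a lipid added by PORCN in the endoplasmic reticulum and travel to the cell surface with the carrier WLS. A ligand that joins a Frizzled receptor and LRP5 or LRP6 stops the AXIN and APC complex from marking beta-catenin for degradation, and beta-catenin then acts with the TCF and LEF factors on target genes, whereas other ligands signal through ROR1, ROR2 or RYK without beta-catenin. The pathway is held in check by secreted antagonists, by the ubiquitin ligases RNF43 and ZNRF3 that remove Frizzled from the surface, and by AXIN2, and the R-spondins with LGR4 to LGR6 release the brake of RNF43 and ZNRF3. In the breast, Wnt signals are known for their part in the maintenance of mammary stem cells.

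PELP1 itself, on chromosome 17, was measured at 57.2, 56.1 and 60.2 CPM in the control samples and at 28.6, 29.9 and 30.3 CPM in the PELP1-KD samples. The groups did not overlap, and the direction matched the labels. PELP1 fell by 0.97 on the log2 scale (SE 0.055, edgeR adjusted p = 1.48e-11).

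Markers of the cell line were as follows. The mesenchymal genes VIM, AXL and CD44 were measured at 2221, 1438 and 1209 CPM in the control samples, and the list of 6 mesenchymal markers summed to between 6026 and 6098 CPM in the control samples and between 5071 and 5134 CPM in the PELP1-KD samples, with the most reads on VIM. VIM, CD44, AXL, ZEB1 and CAV1 fell (5 of 6, where 24.2% of all tested genes fell), by between 0.13 and 0.55 on the log2 scale, and MSN did not pass the test. Of the hormone receptor and luminal markers, ESR1 had 2 counts in all control samples and 1 in all PELP1-KD samples, PGR had 5 and 4, and CDH1 had 5 and 3, so the estrogen and progesterone receptors and epithelial cadherin were near 0. The list was not absent as a whole, since EPCAM and GATA3 were at 9.46 and 6.98 CPM in the control samples and FOXA1 had 57 reads in the control group and 12 in the PELP1-KD group. ERBB2, with the most reads of that list of 7, had 113 CPM in the control group and 118 CPM in the PELP1-KD group and did not pass the test.

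Across all tested genes, 2904 (22.7%) were higher and 3103 (24.2%) were lower in PELP1-KD cells, which is 6007 called genes (46.9%), and the median log2 fold change (log2FC) was 0.0014. With library totals in place of TMM scaling the split moved to 3817 higher and 2418 lower. Of the 29 tested Wnt genes, 10 (34.5%) were higher and 11 (37.9%) were lower, so that 21 (72.4%) passed the test. Their median log2FC was -0.056. These counts cover the genes with enough reads only, and 4 ligands met the minimum count in every sample of a single group, WNT5A, WNT7B and WNT9A in the control group and WNT10A in the PELP1-KD group. Samples of the groups did not overlap for 22 of the 29 tested Wnt genes and for 7041 (55%) of all tested genes. Most of the changes were small. A log2FC beyond 1 was reached by 1 Wnt gene that rose, SOST, where 243 (1.9%) of all tested genes did so, and by 5 that fell, WNT5A, WNT7B, WNT9A, FZD8 and LGR4, where 171 (1.34%) of all tested genes did so. The other 15 called genes changed by less than 2-fold, and 10 of the 21 called genes had a log2FC under 0.5 in size.

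**Figure D1:**
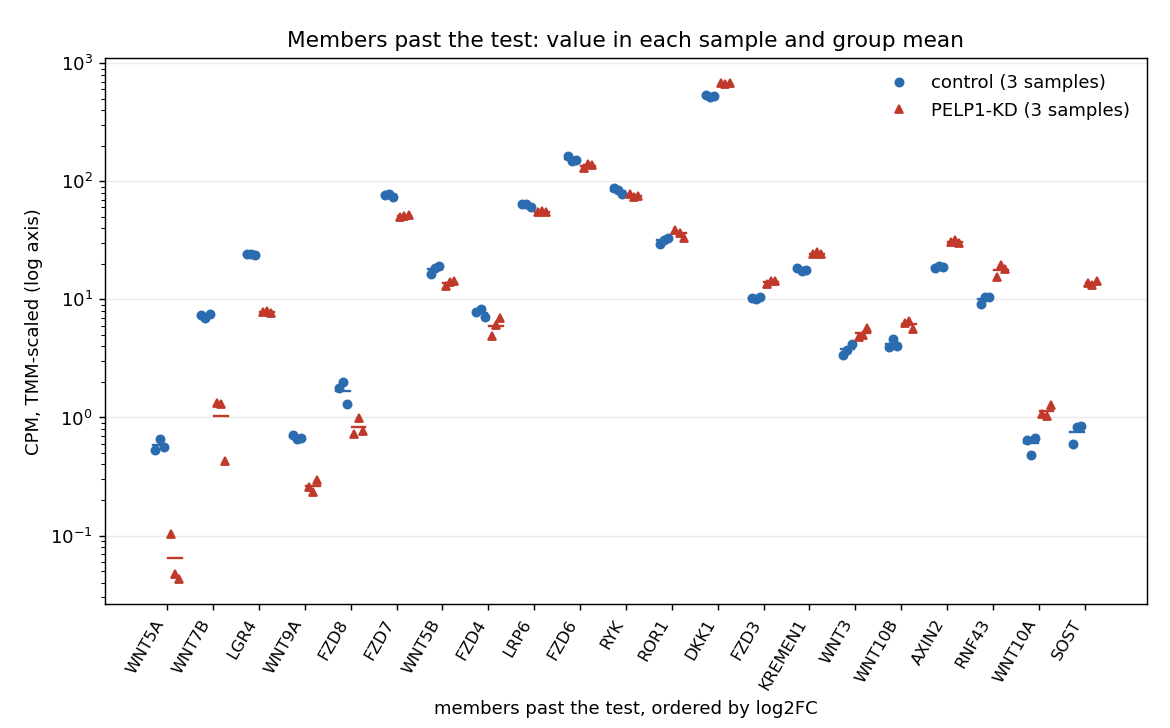
TMM-scaled CPM (log axis) of the 21 Wnt genes that passed the test, in each of 3 control samples (circles) and 3 PELP1-KD samples (triangles), with short lines at the group means, ordered by log2FC from WNT5A to SOST. The 2 groups stand apart for 19 of the 21 genes, and SOST moves from below 1 CPM to above 13 CPM.

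**Figure D2:**
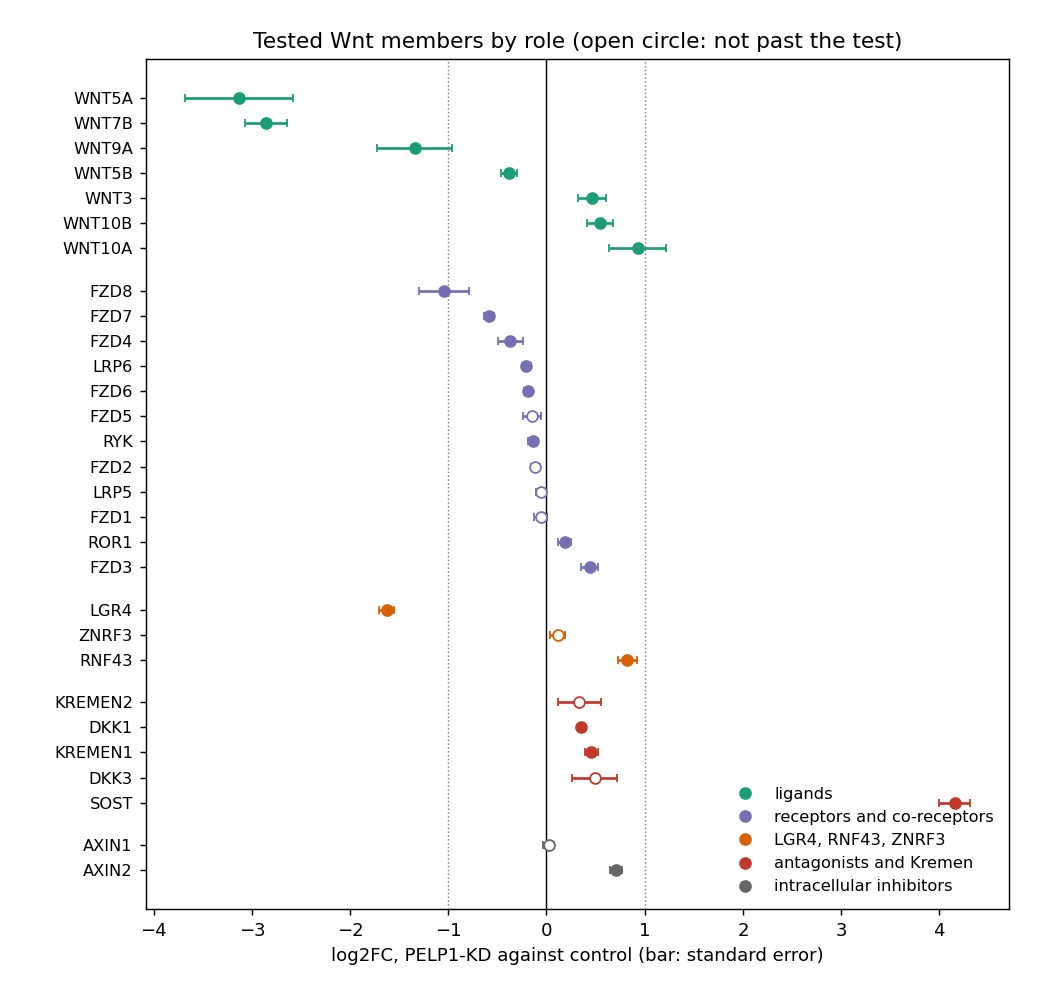
log2FC of PELP1-KD against control (horizontal axis) with its standard error for the 29 tested Wnt genes, grouped by role, with filled circles for genes that passed the test and dotted lines at a 2-fold change. Ligands lie on both sides of 0, most receptors lie between -0.59 and 0.44, and no antagonist or Kremen receptor lies below 0.

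The ligands divided by gene. Of 19 Wnt ligands, 7 were tested and all 7 passed the test without overlap of the groups, where 46.9% of all tested genes were called and 55% did not overlap. For WNT5A, WNT7B, WNT9A and WNT10A a difference was favored by the minimum count, which they met in every sample only where they were high, so the count says little about the ligands as a group. WNT5A, WNT7B, WNT9A and WNT5B fell and WNT10A, WNT10B and WNT3 rose, with a median log2FC of -0.39. The summed level of all ligands was 35.6 ± 1.81 CPM (SD, n = 3) in the control samples and 28.6 ± 0.678 CPM (SD, n = 3) in the PELP1-KD samples.

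WNT7B, a ligand known for beta-catenin signaling and located at chr22:45920362-45977129 on the minus strand (GENCODE release 29 on GRCh38, as are all gene positions given here), had 7.33, 6.95 and 7.49 CPM in the control samples and 1.33, 1.31 and 0.425 CPM in the PELP1-KD samples. All 3 PELP1-KD samples were below every control sample, with the third the lowest. WNT7B fell by 2.85 on the log2 scale (SE 0.21, edgeR adjusted p = 9.53e-10). Of its nearest tested neighbours, ATXN10 did not pass the test (log2FC -0.04, edgeR adjusted p = 0.406) and PPARA, 173 kb away, fell by 0.46 on the log2 scale (edgeR adjusted p = 2.34e-04).

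WNT5A, the prototype of the ligands that act without beta-catenin, lies at chr3:55465715-55490539 on the minus strand and was scarce in both groups. It had 0.532, 0.66 and 0.563 CPM in the control samples and 0.103, 0.0469 and 0.0425 CPM in the PELP1-KD samples, where 3 counts correspond to between 0.127 and 0.154 CPM. All PELP1-KD samples were therefore below the 3-count floor and below every control sample. The 34 reads of the control group and the 4 of the PELP1-KD group gave a ratio of 0.105 (95% interval 0.027 to 0.294, counting error only), and the fitted log2FC was -3.13 (SE 0.55, edgeR adjusted p = 9.70e-05). Its nearest tested neighbours, ACTR8 and CCDC66, are over 1 Mb away and had a log2FC of -0.23 and -0.42.

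WNT5B, the close relative of WNT5A, took the most reads of the ligands and made up 50.6% of the summed ligand CPM in control samples and 48.3% in PELP1-KD samples. It had 16.6, 18.4 and 19.1 CPM in the control samples and 13, 13.9 and 14.4 CPM in the PELP1-KD samples. The groups stood apart by a narrow margin, and WNT5B fell by 0.39 on the log2 scale (SE 0.082, edgeR adjusted p = 6.10e-04).

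WNT9A, at chr1:227918656-227947898 on the minus strand, had 0.71, 0.66 and 0.676 CPM in the control samples and 0.257, 0.234 and 0.297 CPM in the PELP1-KD samples. The groups did not overlap, although they rest on 39 and 17 reads (ratio 0.389, 95% interval 0.206 to 0.703, counting error only). The log2FC of WNT9A was -1.34 (SE 0.38, edgeR adjusted p = 0.00631), and the call was lost with DESeq2 (adjusted p = 0.056). Its neighbours SNAP47 and ARF1 did not pass the test.

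WNT10A, WNT10B and WNT3, ligands known for beta-catenin signaling, moved the other way. WNT10A had 0.65, 0.484 and 0.676 CPM in the control samples and 1.08, 1.03 and 1.27 CPM in the PELP1-KD samples, a log2FC of 0.93 (SE 0.29, edgeR adjusted p = 0.0119). WNT10B had 3.96, 4.58 and 4 CPM in the control samples and 6.31, 6.56 and 5.61 CPM in the PELP1-KD samples, a log2FC of 0.55 (SE 0.13, edgeR adjusted p = 0.0015). For both genes each PELP1-KD sample was above each control sample. WNT3 had 3.37, 3.7 and 4.22 CPM in the control samples and 4.82, 4.97 and 5.74 CPM in the PELP1-KD samples, again without overlap, with a log2FC of 0.46 (SE 0.14, edgeR adjusted p = 0.00939). The call of WNT10A was lost with DESeq2 (adjusted p = 0.0828), without control replicate 2 (edgeR adjusted p = 0.0727) and without PELP1-KD replicate 3 (edgeR adjusted p = 0.0593), and that of WNT3 without PELP1-KD replicate 3 (edgeR adjusted p = 0.062).

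The other 12 ligands were too low to test. WNT1, WNT2, WNT6, WNT7A, WNT8A, WNT9B and WNT16 had 0 counts in every sample, and a count of 0 allows up to 3 counts, or between 0.127 and 0.177 CPM depending on the sample. WNT2B had 10 reads in the control group and 28 in the PELP1-KD group, WNT3A had 15 and 23, WNT11 had 1 and 9, WNT4 had 1 and 1, and WNT8B had 0 and 1. The exons of WNT2B share 2661 bases with ST7L on the opposite strand, which was at 15.5 CPM in the control and 16.5 CPM in the PELP1-KD samples, so reads of the pair may be mixed. For WNT2B (4, 3 and 3 reads in the control samples and 5, 13 and 10 in the PELP1-KD samples) and WNT11 (0, 1 and 0 against 2, 5 and 2) each PELP1-KD sample had more reads than each control sample, and none of the 12 was tested.

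Of 15 receptors and co-receptors, 12 were tested, 6 fell, 2 rose and 4 did not pass the test, where 24.2% of all tested genes fell and 22.7% rose, with a median log2FC of -0.14. Their summed level was 736 ± 2.52 CPM (SD, n = 3) in the control samples and 665 ± 12.5 CPM (SD, n = 3) in the PELP1-KD samples.

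FZD7, a Frizzled receptor of beta-catenin signaling known from TNBC, had 77, 78.7 and 73.4 CPM in the control samples and 50, 51 and 51.6 CPM in the PELP1-KD samples. The samples of each group lay close together and far from the other group. FZD7 fell by 0.59 on the log2 scale (SE 0.048, edgeR adjusted p = 3.36e-09), the largest change among the receptors above 50 CPM in control samples.

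FZD8, at chr10:35638249-35642278 on the minus strand, had 1.77, 1.98 and 1.3 CPM in the control samples and 0.718, 0.984 and 0.765 CPM in the PELP1-KD samples. The groups did not overlap, on 98 and 53 reads. The log2FC was -1.04 (SE 0.25, edgeR adjusted p = 0.00208), just past a 2-fold change, and between -1.19 and -0.89 when 1 sample was left out. Of its nearest tested neighbours, CCNY rose by 0.13 on the log2 scale (edgeR adjusted p = 0.0286) and ZNF248 did not pass the test.

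The other 4 receptor genes that passed the test in this direction fell by smaller amounts. FZD4, a receptor that also binds norrin, had 7.75, 8.36 and 7.1 CPM in the control samples and 4.92, 6.05 and 6.97 CPM in the PELP1-KD samples, so that the highest PELP1-KD sample came close to the lowest control sample (log2FC -0.37, SE 0.13, edgeR adjusted p = 0.022). Its exons share 1399 bases with PRSS23 on the opposite strand, which fell by 0.27 on the log2 scale, from 220 to 182 CPM. The strand setting of the counting is not given in the sources used here, so reads of the pair may be mixed. The co-receptor LRP6 had 64.3, 64.8 and 61.2 CPM in the control samples and 54.5, 55.8 and 54.8 CPM in the PELP1-KD samples (log2FC -0.21, SE 0.048, edgeR adjusted p = 0.00143). FZD6 had 164, 149 and 150 CPM in the control samples and 131, 139 and 136 CPM in the PELP1-KD samples (log2FC -0.19, SE 0.042, edgeR adjusted p = 8.63e-04). For LRP6 and FZD6 the groups did not overlap. RYK, a receptor with an inactive kinase domain, had 88.3, 83.6 and 77.9 CPM in the control samples and 78, 74.2 and 74.9 CPM in the PELP1-KD samples, which overlapped (log2FC -0.14, edgeR adjusted p = 0.0256).

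FZD3 and ROR1 rose. FZD3, a receptor of planar cell polarity, had 10.3, 10.2 and 10.5 CPM in the control samples and 13.5, 14.2 and 14.3 CPM in the PELP1-KD samples (log2FC 0.44, SE 0.085, edgeR adjusted p = 2.42e-04), without overlap. ROR1, a receptor tyrosine kinase that binds WNT5A, had 29.7, 32.1 and 33.3 CPM in the control samples and 38.7, 36.7 and 33.2 CPM in the PELP1-KD samples, where the lowest PELP1-KD sample lay among the control samples (log2FC 0.19, edgeR adjusted p = 0.0257). The calls of FZD4, RYK and ROR1 were each lost in at least 3 of the 6 fits that left out 1 sample.

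FZD2, LRP5, FZD5 and FZD1 did not pass the test. FZD2 was at 89.1 ± 4.02 CPM in the control samples and 82.5 ± 2.80 CPM in the PELP1-KD samples (SD, n = 3; log2FC -0.11, edgeR adjusted p = 0.0506), and it was called lower in 6 of 13 alternative fits. LRP5 was at 184 ± 9.50 CPM and 176 ± 7.38 CPM (log2FC -0.06, edgeR adjusted p = 0.243), and it was called lower without control replicate 1 (edgeR adjusted p = 0.0223). FZD5 (log2FC -0.15, edgeR adjusted p = 0.189) and FZD1 (log2FC -0.06, edgeR adjusted p = 0.508) were at 11 and 22.8 CPM in the control samples. ROR2 had 2 and 6 reads in the control and PELP1-KD groups, FZD9 had 0 and 2, and FZD10 had 0 in every sample.

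Of the 9 R-spondins, LGR receptors and ligases RNF43 and ZNRF3, 3 were tested, of which LGR4 fell, RNF43 rose and ZNRF3 did not pass the test. LGR4, the receptor for R-spondins with the most reads here, lies at chr11:27365961-27472775 on the minus strand. It had 24.4, 24.3 and 23.7 CPM in the control samples and 7.8, 7.97 and 7.65 CPM in the PELP1-KD samples, so each group spanned less than 1 CPM. LGR4 fell by 1.63 on the log2 scale (SE 0.080, edgeR adjusted p = 1.30e-12), to a level 3.09-fold lower. Its neighbour CCDC34, 2.09 kb away, had a log2FC of -0.002 (edgeR adjusted p = 0.979), and LIN7C, on the other side, fell by 0.18 on the log2 scale (edgeR adjusted p = 0.0236).

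RNF43 had 9.11, 10.4 and 10.4 CPM in the control samples and 15.4, 19.6 and 18.1 CPM in the PELP1-KD samples. All PELP1-KD samples were above all control samples, and RNF43 rose by a log2FC of 0.82 (SE 0.097, edgeR adjusted p = 6.85e-07). In GENCODE it shares 143 exon bases with SUPT4H1, which did not pass the test (log2FC -0.06). It also shares 4326 bases with the model AC004687.2 on the same strand and 1521 with TSPOAP1-AS1 on the opposite strand, neither of which was matched to a symbol of the count tables, so its reads may be mixed with theirs. ZNRF3, the paralog of RNF43, was at 19.3 ± 1.58 CPM in the control samples and 20.8 ± 0.883 CPM in the PELP1-KD samples (SD, n = 3; log2FC 0.11, edgeR adjusted p = 0.225). All 4 R-spondins, the ligands of LGR4, had 0 counts in every sample. LGR5, a target gene and a stem cell marker, had 21 reads in the control group and 16 in the PELP1-KD group, and LGR6 had 2 and 1.

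Of 13 secreted antagonists and Kremen receptors, 5 were tested, 3 rose and 0 fell (edgeR, also 0 at an unadjusted p below 0.05 and 0 with DESeq2), where 22.7% of all tested genes rose and 24.2% fell. With 5 genes tested, these counts give no direction for the group. Their summed level was 548 ± 15.1 CPM (SD, n = 3) in the control samples and 715 ± 8.84 CPM (SD, n = 3) in the PELP1-KD samples, of which DKK1 made up 96.1% and 94.1%.

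SOST encodes sclerostin, which binds LRP5 and LRP6 and is best known as a product of osteocytes. It lies at chr17:43753731-43758788 on the minus strand. It was measured at 0.591, 0.836 and 0.845 CPM in the control samples (10, 19 and 15 reads) and at 13.6, 13.3 and 14.3 CPM in the PELP1-KD samples (266, 284 and 336 reads). No control sample reached 1 CPM and no PELP1-KD sample was below 13 CPM. SOST rose by a log2FC of 4.16 (SE 0.15, edgeR adjusted p = 1.49e-14). The ratio of the summed reads was 18.0 (95% interval 13.3 to 24.9, counting error only). Per exon length the level of SOST went from 0.329 to 5.98 RPKM, the CPM divided by the exon length in kilobases. Its nearest tested neighbour DUSP3, 7.33 kb away, a phosphatase of MAP kinases, went from 124 ± 3.22 to 166 ± 3.90 CPM (SD, n = 3; log2FC 0.42, edgeR adjusted p = 1.77e-08). DHX8, 143 kb away on the other side, rose by a log2FC of 0.11 (edgeR adjusted p = 0.0459).

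Markers of osteoblasts and osteocytes were measured beside SOST. Of 12 markers, MEPE, FGF23, ALPL and SPP1 had 0 counts in every sample, DMP1 had 1 read in the control group and 0 in the PELP1-KD group, PHEX had 6 and 3, BGLAP 2 and 2, IBSP 2 and 1, PDPN 0 and 2, and SP7 0 and 1. The osteocyte markers were thus at or near 0 in both groups. RUNX2, with the most reads of the list, fell by 0.24 on the log2 scale from 42.1 to 35.7 CPM (edgeR adjusted p = 0.0014). COL1A1 went from 5.84 ± 1.08 to 18.1 ± 1.53 CPM (SD, n = 3; log2FC 1.61, edgeR adjusted p = 3.23e-10). The list summed to 48.1, 48.8 and 47.4 CPM in the control samples and to 53.6, 57 and 51.4 CPM in the PELP1-KD samples.

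DKK1, the antagonist that binds LRP6 together with Kremen receptors, had 542, 513 and 523 CPM in the control samples and 679, 662 and 677 CPM in the PELP1-KD samples. All PELP1-KD samples were well above all control samples. DKK1 rose by a log2FC of 0.35 (SE 0.029, edgeR adjusted p = 2.87e-09, with 212 exon bases shared with PRKG1-AS1 on the opposite strand), a small relative change of the gene with the highest level per exon length among the Wnt genes. KREMEN1 had 18.4, 17.3 and 17.7 CPM in the control samples and 24.1, 25 and 24.2 CPM in the PELP1-KD samples, without overlap (log2FC 0.46, SE 0.068, edgeR adjusted p = 1.42e-05). KREMEN2 was at 1.55 and 1.99 CPM (log2FC 0.33, edgeR adjusted p = 0.216) and shares 360 exon bases with PKMYT1 on the opposite strand. PKMYT1 was far higher, at 109 CPM in the control and 125 CPM in the PELP1-KD samples (log2FC 0.19, edgeR adjusted p = 0.00511), so reads of the pair may be mixed. DKK3, a divergent member of the DKK family, was at 1.26 and 1.75 CPM (log2FC 0.49, edgeR adjusted p = 0.0827). The antagonists SFRP2, SFRP5, WIF1, SOSTDC1 and DKK4 had 0 counts in every sample, and SFRP1, SFRP4 and DKK2 had at most 8 reads in all 6 samples together.

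The promoters of DKK1 and SOST, the most abundant antagonist and the one with the largest change, are shown because their composition differs. Each is the 250 bases before the RefSeq gene start, 5′ to 3′ in the direction of the gene, from GRCh38.p14: chr10:52314031-52314280 on the plus strand for DKK1 and chr17:43758792-43759041 on the minus strand for SOST. Capitals mark matches, on either strand, to a TCF/LEF word (the letters CTTTG followed by A or T at each of the next 2 positions) or a TATA word (TATAAA).
DKK1: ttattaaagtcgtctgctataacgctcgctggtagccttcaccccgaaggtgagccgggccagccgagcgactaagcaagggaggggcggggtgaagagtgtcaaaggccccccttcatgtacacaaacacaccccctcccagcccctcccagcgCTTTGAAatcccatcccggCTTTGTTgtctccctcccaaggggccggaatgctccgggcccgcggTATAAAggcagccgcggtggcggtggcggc
SOST: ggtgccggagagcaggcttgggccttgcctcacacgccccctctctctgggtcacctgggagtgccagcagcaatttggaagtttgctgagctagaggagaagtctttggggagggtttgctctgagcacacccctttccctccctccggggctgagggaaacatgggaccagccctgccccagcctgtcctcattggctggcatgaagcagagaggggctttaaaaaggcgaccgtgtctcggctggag
DKK1 holds 2 TCF/LEF words, which start at positions -95 and -76 relative to the gene start, and a TATA word at -30, while SOST holds no match to these words in this window. TCF/LEF words were found in 12.0% and TATA words in 10.7% of the 35116 RefSeq promoters, and the words do not overlap each other in DKK1. Of the 60 Wnt genes, 39 had a promoter entry, and DKK1 was the only one of them with a TCF/LEF word. The SOST window holds 6 CG dinucleotides and the DKK1 window 18, against a median of 23 over the 45 promoter entries of the Wnt genes and 11 over all promoters. A match is a description of letters and not of a bound site.

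Of the intracellular inhibitors, AXIN2 rose. AXIN2, a scaffold of the beta-catenin degradation complex and itself a target gene of the pathway, had 18.5, 19.1 and 18.8 CPM in the control samples and 30.4, 31.7 and 30.3 CPM in the PELP1-KD samples. The 2 groups were far apart, and AXIN2 rose by a log2FC of 0.71 (SE 0.064, edgeR adjusted p = 1.77e-08). In GENCODE it shares 1316 exon bases with the model AC004805.1 on the same strand, which was not matched to a symbol of the count tables. AXIN1, its constitutive paralog, was at 60.3 ± 3.64 and 61.3 ± 3.03 CPM (SD, n = 3; log2FC 0.02, edgeR adjusted p = 0.767). NKD1, which binds Dishevelled, had 16 reads in the control group and 25 in the PELP1-KD group, and NKD2 had 0.

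**Figure D3:**
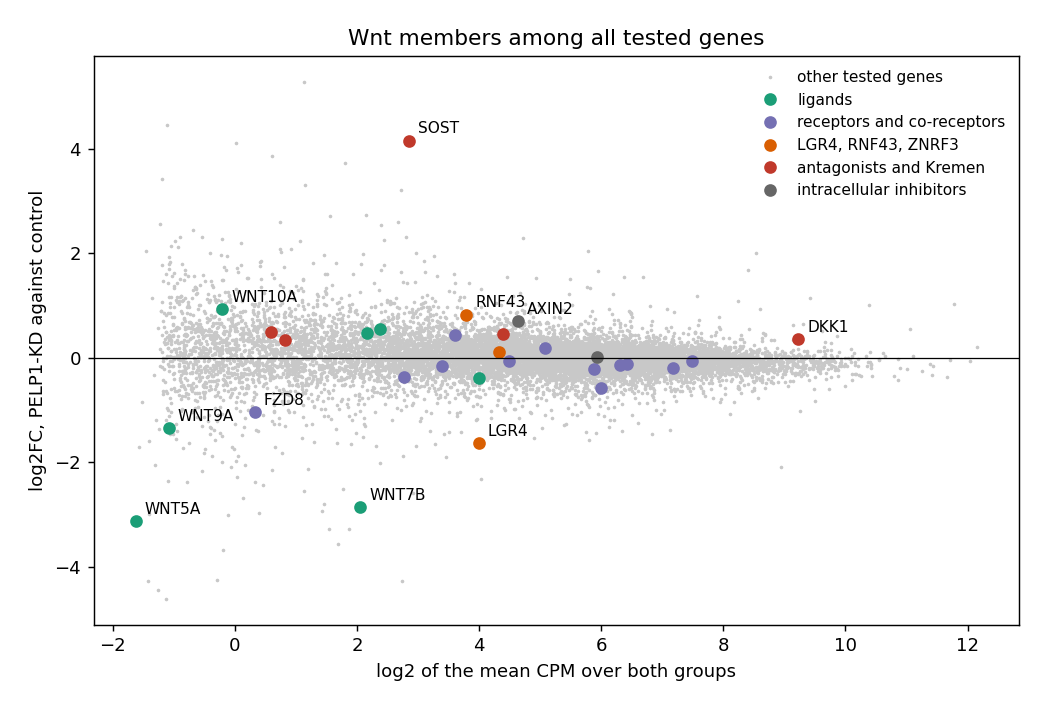
log2FC of PELP1-KD against control (vertical axis) against the log2 of the mean CPM over both groups for the tested genes, with Wnt genes in color by role and all other tested genes in grey. SOST (4.16), WNT7B (-2.85) and LGR4 (-1.63) lie outside the main cloud, WNT5A and WNT9A lie at its low-count edge, and DKK1 lies at the high end of expression.

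Per exon length, the levels of the 29 tested genes covered a wide range. DKK1 led with 239 ± 6.68 RPKM in the control samples and 305 ± 4.18 RPKM in the PELP1-KD samples (SD, n = 3). It was followed in the control samples by FZD2 (42.2 ± 1.90 RPKM), FZD6 (38.0 ± 2.05 RPKM), LRP5 (29.8 ± 1.54 RPKM), FZD7 (19.8 ± 0.693 RPKM) and RYK (10.3 ± 0.643 RPKM). The neighbours FZD2 and FZD6 in this order were about as far apart as the sum of their SDs, while DKK1 was clear of all others. WNT5B was the highest ligand (4.19 ± 0.306 RPKM), next to LGR4 (3.80 ± 0.056 RPKM) and AXIN2 (3.60 ± 0.061 RPKM). WNT5A was the lowest tested gene (0.079 RPKM in the control samples and 0.009 RPKM in the PELP1-KD samples). In the PELP1-KD samples SOST (5.98 ± 0.213 RPKM) was close to AXIN2 (5.89 ± 0.152 RPKM), with a gap smaller than their SDs, and LGR4 was at 1.23 ± 0.025 RPKM.

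**Figure D4:**
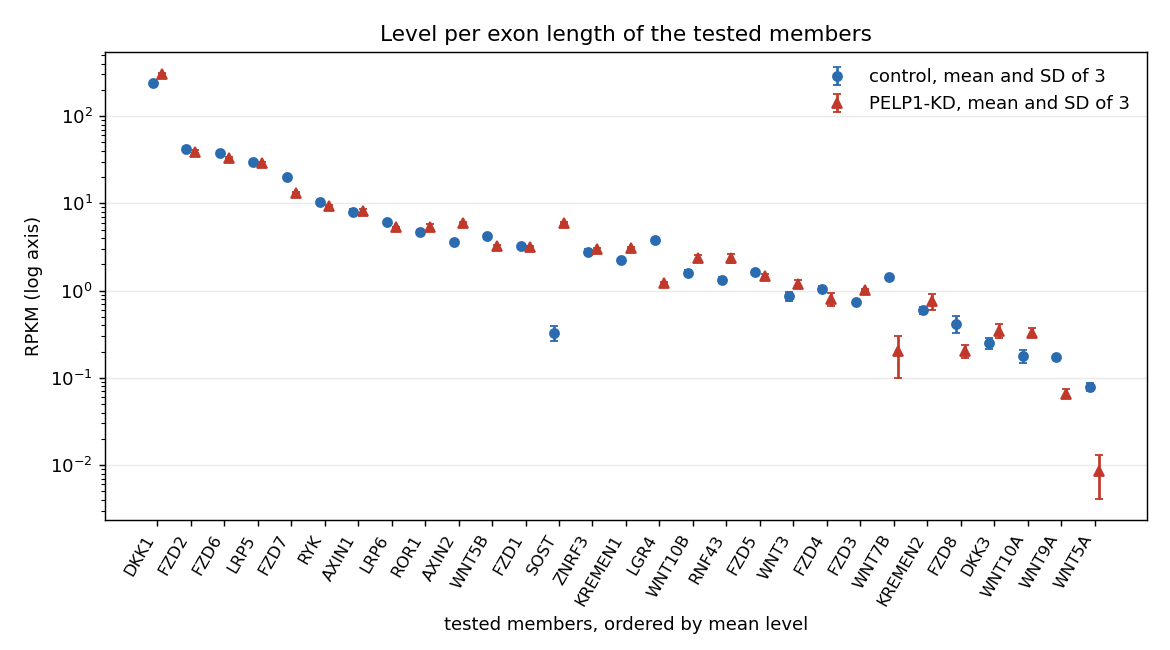
Mean RPKM (log axis) with SD over 3 samples of the 29 tested Wnt genes in control (circles) and PELP1-KD samples (triangles), ordered by the mean of both groups. DKK1 stands above the rest in both groups, and SOST moves from 0.329 to 5.98 RPKM.

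Other genes of the pathway were read from 4 lists. Among genes for Wnt secretion and extracellular modulation, 11 of the 19 listed in the files were tested, 8 (72.7%, against 24.2% of all tested genes) fell and 0 rose (edgeR, also 0 at an unadjusted p below 0.05 and 0 with DESeq2), with a median log2FC of -0.19 against 0.0014 over all tested genes. PORCN, the acyltransferase that adds the lipid to Wnt proteins, went from 14.9 ± 1.52 to 11 ± 2.06 CPM (SD, n = 3; log2FC -0.43, SE 0.11, edgeR adjusted p = 0.00319). TPBG, a membrane glycoprotein that inhibits beta-catenin signaling, had a log2FC of -0.39 (edgeR adjusted p = 5.86e-05), and VPS35, a retromer subunit that returns WLS to the Golgi, had a log2FC of -0.35 (edgeR adjusted p = 8.40e-08). WLS, VPS26A, VPS29, IGFBP4 and GPC6 also fell, by between 0.17 and 0.29 on the log2 scale. LRP4, TSPAN12 and the gene listed as C2orf89 did not pass the test, and LRP4 and C2orf89 had a log2FC of 0.08 and 0.07.

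Of 40 genes of the core of beta-catenin signaling, 38 were tested, 10 (26.3%) rose and 4 (10.5%) fell, against 22.7% and 24.2% of all tested genes, with a median log2FC of 0.0077, and the count of genes that fell dropped to 1 with DESeq2 and to 2 with library totals. CTNNB1, which encodes beta-catenin, was at 498 ± 10.3 and 507 ± 6.60 CPM (SD, n = 3; log2FC 0.03, edgeR adjusted p = 0.487), and APC (log2FC 0.02) and GSK3B (log2FC -0.04) did not pass the test. DACT3, an inhibitor of Dishevelled, rose by a log2FC of 1.31 (edgeR adjusted p = 0.00361) on 21 and 59 reads, and it met the minimum count in the PELP1-KD samples alone. TCF7, a TCF factor, rose from 9.66 ± 0.290 to 14.3 ± 0.362 CPM (SD, n = 3; log2FC 0.57, edgeR adjusted p = 1.54e-05), and CBY1, an inhibitor of beta-catenin, had a log2FC of 0.38 (edgeR adjusted p = 6.25e-05). PYGO1, CSNK1D and CCDC88C fell by 0.34, 0.22 and 0.18 on the log2 scale.

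Among genes of signaling without beta-catenin, 33 of 37 were tested, 7 (21.2%) rose and 7 (21.2%) fell, close to the shares of all tested genes, with a median log2FC of 0.068. PLCB4, a phospholipase C, rose from 1.32 ± 0.311 to 11.9 ± 0.643 CPM (SD, n = 3; log2FC 3.20, SE 0.15, edgeR adjusted p = 6.74e-13). DAAM1, a formin of planar cell polarity, had a log2FC of 0.50 (edgeR adjusted p = 1.73e-06) and the transcription factor NFATC1 0.43 (edgeR adjusted p = 0.00284). RAC1, a small GTPase, fell from 440 ± 11.8 to 289 ± 0.852 CPM (SD, n = 3; log2FC -0.61, edgeR adjusted p = 1.78e-12). The ubiquitin ligase SMURF2 and the kinase PRKCA fell by 0.57 and 0.46 on the log2 scale.

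Of 27 known target genes of beta-catenin and TCF, 21 were tested, 6 (28.6%) rose and 6 (28.6%) fell, with a median log2FC of 0.022. These shares are near the 22.7% and 24.2% of all tested genes. The genes that rose were RNF43, AXIN2, TCF7, DKK1, LEF1 and MYC, of which MYC, a driver of cell growth, had a log2FC of 0.09 (edgeR adjusted p = 0.0376). JAG1, a Notch ligand, fell from 38.4 ± 0.623 to 22.5 ± 1.12 CPM (SD, n = 3; log2FC -0.77, edgeR adjusted p = 2.30e-09). CCND1, the cell cycle gene of cyclin D1, fell from 633 ± 6.32 to 434 ± 3.97 CPM (SD, n = 3; log2FC -0.55, edgeR adjusted p = 1.74e-12), and the adhesion receptor CD44, also one of the mesenchymal markers above, by 0.55 on the log2 scale (edgeR adjusted p = 8.62e-13). FOSL1, EPHB2 and JUN fell as well, by between 0.24 and 0.53 on the log2 scale. Without the targets that are themselves among the 60 Wnt genes, 3 of 17 rose and 6 fell, with a median log2FC of -0.13.

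**Figure D5:**
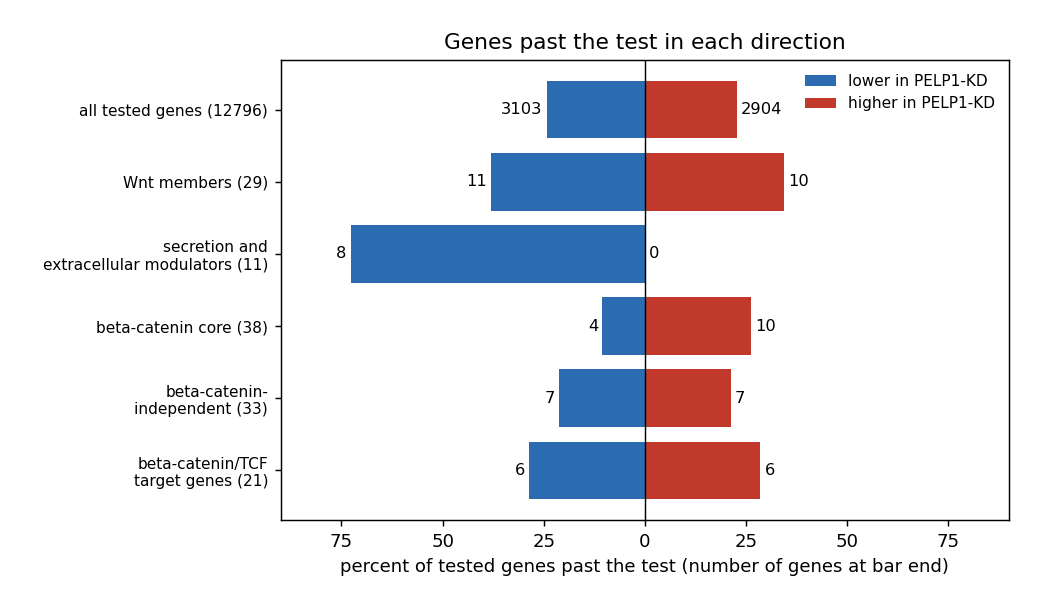
Percent of tested genes lower (left) and higher (right) in PELP1-KD cells for all tested genes, the Wnt genes and 4 pathway lists, with the number of genes at each bar end and the number tested in parentheses. The secretion list has 8 lower and 0 higher, and the other lists have genes in both directions.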

How the data were processed

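RNA of MDA-MB-231 cells was sequenced by the study with single reads of 50 bases after a stranded TruSeq mRNA library preparation. The authors deposited raw counts of reads per gene symbol, 1 table per sample, without normalization. The submitters' processing notes name bcl2fastq, TopHat2, SAMtools, HTSeq and the hg19 build, and versions, gene annotation and strand setting are not given in the sources used here. Of the total of gene counts and closing totals, between 32.5% and 32.9% stood under more than 1 alignment and was counted on no gene. Genes with near-identical copies can thus be counted low. That entry may count alignments rather than reads, in which case the shares of reads differ from those given here. Another 7.64% to 8.19% of the total lay in no gene and 0.657% to 0.688% was ambiguous. These closing totals were left out of library sizes.

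Genes were filtered with filterByExpr (minimum count 10) and tested with the quasi-likelihood test of edgeR 4.0.16 (R 4.3.3) after TMM scaling, control against PELP1-KD, with Benjamini-Hochberg adjustment over 12796 genes. The SE was taken from the log2FC and the F statistic of the test (size of log2FC over root F). RPKM used exon lengths from GENCODE release 29, and positions are on GRCh38, not the build of the counts. Promoters came from RefSeq (GRCh38.p14). A floor of 3 counts equals 0.127 to 0.177 CPM, and floors and intervals cover counting error only. All members of the family were accounted for. Those called were named, the 10 with the largest log2FC and those past 2-fold with every sample. From each pathway list the 3 called genes with the largest rise and the 3 with the largest fall were named. One marker of the leukocyte and endothelial list is not reported here. The members and gene lists were chosen with earlier results of these data known. The scripts were tested on simulated data. Samples of a group differed by more than sampling noise (chi-square per degree of freedom 1.46 to 4.06), so no count table was a copy of another. The closest pairs were control samples 2 and 3 (1.46) and PELP1-KD samples 1 and 3 (1.51), and the other pairs were at 2.71 to 4.06. These values cannot show whether samples came from separate cultures or libraries. Alternatives were RLE factors, library totals, DESeq2 1.42.0, voom in limma 3.58.1, 2 other count filters, leaving out each sample, a block for the replicate number, and a test against a 2-fold change.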

Additional observations from a re-analysis of the deposited data

How the results depend on the processing

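The Wnt genes called higher numbered 8 to 10 and those called lower 8 to 12 over the 13 alternatives that kept the test against no change, where they were 10 and 11 as reported. Of the 21 called Wnt genes, 15 kept their direction and their call in each of these in which they were tested, and the others were WNT3, WNT9A, WNT10A, FZD4, ROR1 and RYK. WNT5A and WNT9A had too few reads to be tested when at least 10 counts were asked of every sample, and WNT5A also without control replicate 2. The Wnt genes more than 2-fold lower numbered 5, and 3 with at least 10 counts in every sample, 3 in glmTreat's test against a 2-fold change (LGR4, WNT5A and WNT7B, with SOST the only one higher, so that the other 17 called genes did not pass it) and 3 to 5 when 1 sample was left out. Those more than 2-fold higher numbered 1, and 1 to 2 when 1 sample was left out, because WNT10A passed without control replicate 3. In the beta-catenin core, 4 genes were lower, and 2 with library totals, 1 with DESeq2 and 2 to 4 when 1 sample was left out. The log2FC of AXIN1 ranged from -0.018 to 0.063 when 1 sample was left out and changed sign without control replicate 1 (-0.018) and without PELP1-KD replicate 2 (-0.010). The cause of these shifts was not tested. With library totals, 61.2% of the called genes of the whole table were higher, against 48.3% with TMM, and 10 Wnt genes were higher and 10 lower, since RYK was no longer called.

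Whether the numbers 1 to 3 pair the samples could not be settled with 3 samples per group. The deviations of same-numbered samples correlated at 0.039, 0.065 and -0.078, and those of differently numbered samples at between -0.121 and 0.090. In a model blocked on the number, 10 Wnt genes were higher and 12 lower, with FZD2 added (edgeR adjusted p = 0.0308) and none lost. FZD2 was also called with voom, with no filter, with at least 10 counts in every sample, without control replicate 1 and without PELP1-KD replicate 2. In the blocked model the whole table had 3140 higher and 3335 lower, against 2904 higher and 3103 lower without the block.

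Depth limits the genes near the floor of 3 counts. The 31 Wnt genes that were not tested had at most 41 reads over all 6 samples, and 18 of them had 0 in every sample.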

Other observations

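Some markers of other cell types, listed to check the label of the cell line, also moved. FOXA1, a luminal transcription factor, had 57 reads in the control group and 12 in the PELP1-KD group (log2FC -2.37, SE 0.49, edgeR adjusted p = 5.10e-04), and it met the minimum count in the control samples alone. GATA3 and EPCAM, also of the luminal list, were at 6.98 and 9.46 CPM in the control samples and at 8.08 and 9.57 CPM in the PELP1-KD samples and did not pass the test. The luminal list summed to between 127 and 133 CPM in the control samples and between 130 and 145 CPM in the PELP1-KD samples.

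Of the leukocyte and endothelial markers, PTPRC had 0 counts in every sample and CD3E had 0 and 2 reads in the control and PELP1-KD groups. PECAM1 had 12 and 13 reads and CDH5 had 8 and 7. VWF, the endothelial gene of von Willebrand factor, had 7 reads in the control group and 48 in the PELP1-KD group (log2FC 2.56, SE 0.55, edgeR adjusted p = 6.99e-04), and it met the minimum count in the PELP1-KD samples alone. CD68, a lysosomal protein and the gene of this list with the most reads, went from 118 ± 1.54 to 93.8 ± 3.37 CPM (SD, n = 3; log2FC -0.33, edgeR adjusted p = 1.70e-06). The listed markers summed to between 117 and 120 CPM in the control samples and between 91.2 and 98.1 CPM in the PELP1-KD samples.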
